A study of Mus musculus with 6 samples.

Results

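The glutamate transporters and the glutamine synthetase gene were followed in 2 neighbouring parts of the mouse ventrolateral ventromedial hypothalamus. The 7 genes were taken by symbol from a table of 47480 genes: the vesicular transporters Slc17a6, Slc17a7 and Slc17a8, the plasma membrane transporters Slc1a1, Slc1a2 and Slc1a3, and Glul, which encodes glutamine synthetase. All 7 symbols were present once. VMHpvlm and VMHpvll had been cut by laser capture microdissection from frozen coronal brain sections of female mice that carried VgluT2-cre and the Ai6 reporter, and whole RNA of the captured tissue was sequenced. Both regions came from the same genotype and sex, with no treatment and no age given in the labels. The cre line is named for the Slc17a6 protein and the reporter leaves a green fluorescent mark in cells with a history of cre activity, but the labels do not say that marked cells alone were cut, so glia and vessels are part of each sample. Each region had 3 libraries, which carry the names F19, F20 or KH_161103 in their titles, each name once per region. The labels do not say that the libraries of a region came from different animals, and p-values therefore cannot be said to measure the spread among animals. The p-values of the fit also draw on the variance of other genes. These supply a median of 39.9 prior degrees of freedom, beside 2 residual ones from a gene's own libraries.

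Neurons that release glutamate load it into synaptic vesicles with a vesicular glutamate transporter, and most of them use mainly 1 of the 3. Slc17a6 (VGLUT2) is the usual form in the hypothalamus and thalamus, Slc17a7 (VGLUT1) in the cortex and hippocampus, and Slc17a8 (VGLUT3) in scattered neurons that often release another transmitter as well. Released glutamate is cleared by sodium-driven transporters of the SLC1 family. Slc1a2 (GLT-1) and Slc1a3 (GLAST) are the main astrocytic forms and Slc1a1 (EAAC1) is a neuronal form. Astrocytes convert the glutamate to glutamine through Glul, and neurons take up the glutamine and turn it back to glutamate.

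Depth ran from 7157831 to 11293159 recovered reads per library. Levels are the deposited normalised read counts, that is, gene counts divided by 1 factor per library. Of the markers of the ventromedial nucleus, Nr5a1 stood at 308 ± 19.5 (SD, n = 3) in VMHpvlm and 31.5 ± 6.73 in VMHpvll, and the oestrogen receptor Esr1 at 513 ± 74.0 and 1490 ± 63.8. Of 14522 genes whose mean reached 10 normalised reads, 20% were called different between the regions, that is, had a limma p below 0.05 after Benjamini-Hochberg adjustment over all of them. The share called higher in VMHpvlm was 10.5% and the share called higher in VMHpvll 9.48%. Of the 7 genes, 5 passed the filter and were tested, and Slc17a7 and Slc17a8 were not.

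Slc1a2 was the single tested gene of the 5 that was called, and it was higher in VMHpvll. In either direction, the share called among the 5 was no higher than the 20% over all tested genes. Toward VMHpvll the share over all tested genes was 9.48%, and 5 genes are too few to judge a departure from either share. The fitted differences of the other 4 tested genes, Slc17a6, Slc1a1, Slc1a3 and Glul, also lay below 0 (VMHpvlm minus VMHpvll) but were at most 0.12 in size on the log2 scale and were not called. The median of the 5 was -0.086, against 0.0025 over all tested genes. Slc17a7 was close to absent from both regions, and Slc17a8 was rare in both.

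The stretches upstream of the start sites of 3 of these genes are shown because Slc17a6 is the gene that the cre line is named for, and because Slc1a2 and Slc1a3, the pair of astrocytic transporters, lay apart in the size of their differences. They come from RefSeq on GRCm38.p6, which listed a start for all 7 genes. Each is given 5′ to 3′ on the strand of its gene, and capitals mark matches on either strand to TATAAA, the core of the usual promoter box of that sequence, to CCAAT, the letters bound by the factor NF-Y, and to GGGCGG, the letters of an Sp1 box. The motifs do not overlap one another in these stretches.
Slc17a6, chr7:51621580-51621829 (plus strand): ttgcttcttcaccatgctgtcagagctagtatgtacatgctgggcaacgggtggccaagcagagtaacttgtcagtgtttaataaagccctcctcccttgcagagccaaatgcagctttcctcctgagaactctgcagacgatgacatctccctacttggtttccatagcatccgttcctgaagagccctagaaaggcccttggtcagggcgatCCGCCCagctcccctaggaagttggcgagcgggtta
Slc1a2, chr2:102706188-102706355 (plus strand): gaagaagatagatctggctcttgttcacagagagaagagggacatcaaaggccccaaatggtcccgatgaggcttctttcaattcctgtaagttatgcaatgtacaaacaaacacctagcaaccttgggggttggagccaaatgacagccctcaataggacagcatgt
Slc1a3, chr15:8710808-8711057 (minus strand): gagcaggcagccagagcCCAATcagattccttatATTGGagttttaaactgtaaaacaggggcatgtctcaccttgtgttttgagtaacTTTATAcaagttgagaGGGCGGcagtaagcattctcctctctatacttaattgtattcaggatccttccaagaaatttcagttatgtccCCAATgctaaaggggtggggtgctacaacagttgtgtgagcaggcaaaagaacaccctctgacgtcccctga

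The Slc17a6 and Slc1a3 stretches are the 250 bases before a listed start. RefSeq lists 2 starts for Slc17a6, and the one shown is the upstream one. The 250 bases before the other (chromosome 7 from 51624387 to 51624636) held 0 matches to each motif and had a GC content of 41.2%. That of Slc1a2 is 168 bases long and ends 82 bases before the listed start, because the bases that follow lie in an annotated exon of another Slc1a2 transcript. Slc1a2 has 12 transcripts in GENCODE M21, and its outermost start, at position 102658659, is far upstream of the start listed by RefSeq, so the stretch shown is not the only candidate promoter. The Slc1a3 stretch held 1 match to TATAAA, 3 to CCAAT and 1 to GGGCGG. The Slc17a6 stretch shown held 1 match to GGGCGG and 0 to the other motifs, and the Slc1a2 stretch held 0 to each. Over the 32817 listed starts, 12.4% of windows of 250 bases held TATAAA, 33.8% CCAAT and 32.7% GGGCGG. For windows of 168 bases at the same offset the shares were 8.01%, 22.8% and 19.2%. GC content was 53.2% in the Slc17a6 stretch shown, 46.4% in that of Slc1a2 and 44.8% in that of Slc1a3, beside a median of 52.4% over all windows of 250 bases.

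**Figure D1:**
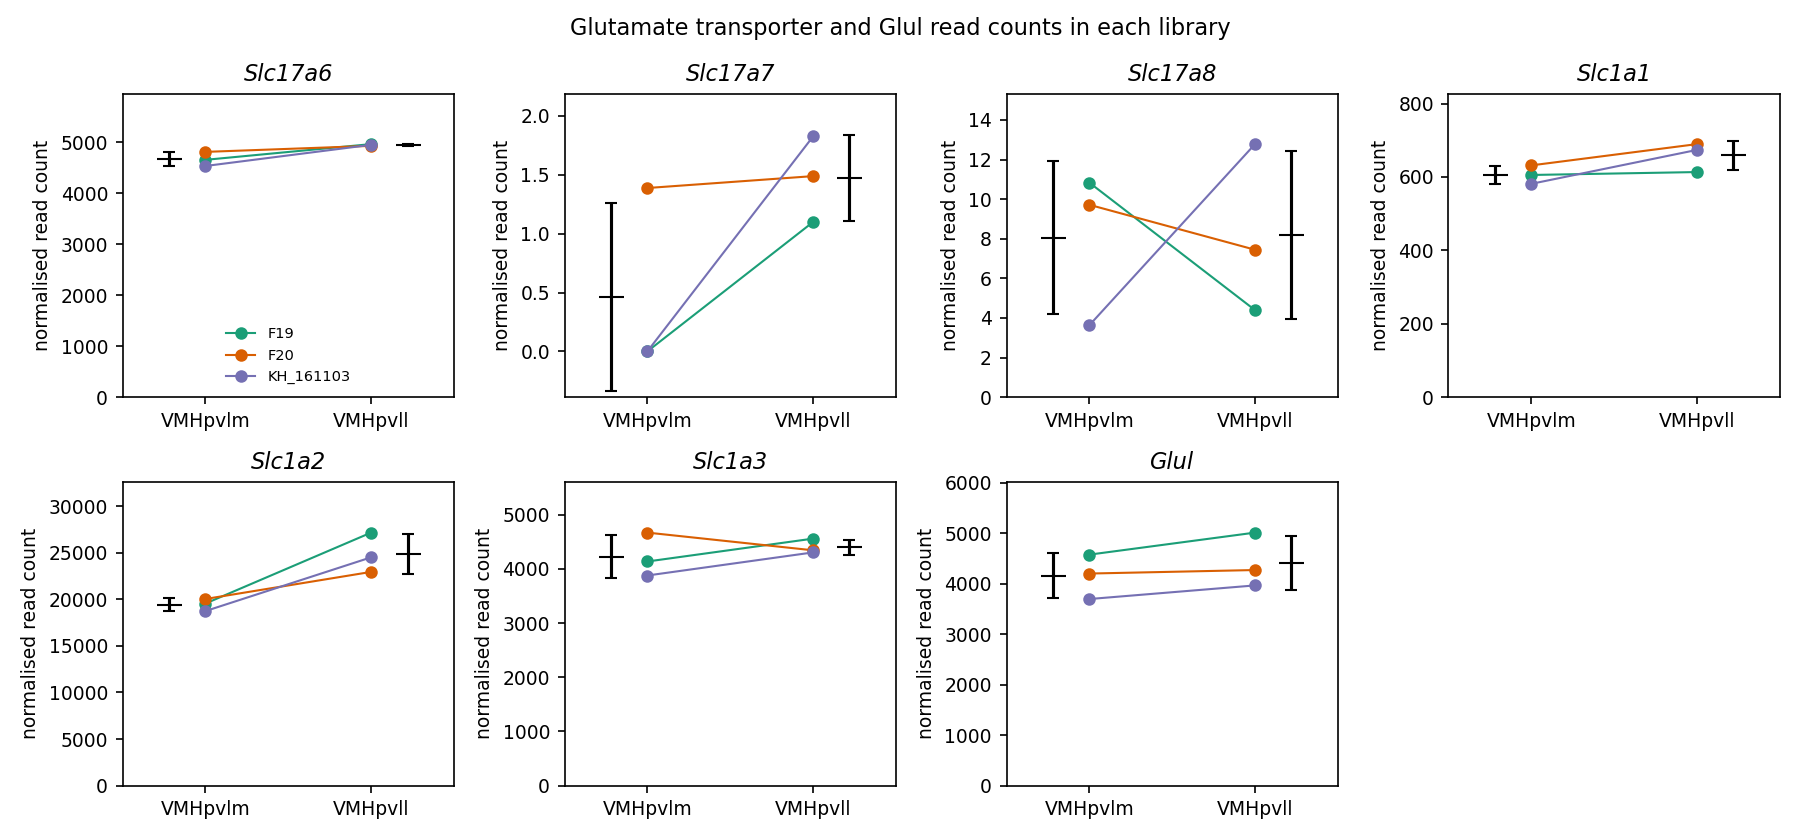
Normalised read count of each gene (vertical axes, linear) in VMHpvlm and VMHpvll, with coloured lines between libraries of the same name and black marks for the mean and SD of 3 libraries. The 3 VMHpvll libraries of Slc1a2 lie between 22936 and 27152, above the highest VMHpvlm library at 20031, and those of Slc17a6 lie in a narrow band from 4928 to 4962.

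Among the vesicular transporters, Slc17a6 made up nearly the whole of the signal in both regions. The F19, F20 and KH_161103 libraries held 4654, 4810 and 4533 normalised reads of it in VMHpvlm and 4962, 4928 and 4948 in VMHpvll. The VMHpvll values were close together and all lay above the VMHpvlm values, without overlap, as was the case for 28.0% of all tested genes in either direction and for 13.5% toward VMHpvll. The means were 4665 ± 139 (SD, n = 3) and 4946 ± 17.1, a 1.06-fold difference. The fitted log2 difference was -0.085 ± 0.035 SE (95% interval -0.16 to -0.014, limma Benjamini-Hochberg adjusted p = 0.0859), so the gene was not called. The sign was the same in 3 of 3 pairs, an order shown by 23.2% of all tested genes. Without the F20 pair Slc17a6 was called (log2 difference -0.11, limma Benjamini-Hochberg adjusted p = 0.0482), as it was with libraries scaled to the same upper quartile (-0.096, adjusted p = 0.0411).

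Slc17a7, the cortical form, was at the limit of detection. The recovered reads were 0, 1 and 0 in the F19, F20 and KH_161103 libraries of VMHpvlm and 1, 1 and 2 in those of VMHpvll. The 0 in the F19 library of VMHpvlm allows up to 4.06 normalised reads and that in the KH_161103 library up to 2.72 (3 reads each, counting error only). All 6 libraries were therefore within the range that a count of 0 allows, and no difference was detectable at this depth. Markers of forebrain neurons rich in Slc17a7 were mixed: Neurod6 and Neurod2 had 0 reads in all 6 libraries, Tbr1, Emx1 and Fezf2 stayed below the filter, while Camk2a, at 6606 ± 368 in VMHpvlm and 6642 ± 172 in VMHpvll, and Prox1, at 230.2 ± 27.1 and 356 ± 23.7, were expressed. Of the 3 tested, Prox1 was called, toward VMHpvll, as were 9.48% of all tested genes. The summed level of the 3 tested markers ran from 6830 to 7534 in VMHpvlm and from 7050 to 7405 in VMHpvll.

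Slc17a8 was detected in every library at between 4 and 14 recovered reads. Its normalised read count was 10.8, 9.72 and 3.63 in VMHpvlm and 4.40, 7.45 and 12.8 in VMHpvll, in the order F19, F20 and KH_161103. The ranges overlapped almost wholly, and the order of the regions differed between pairs. The means were 8.06 ± 3.88 and 8.21 ± 4.24 (SD, n = 3). The mean log2 difference of -0.032 had no test with the filter on low values. It was -0.61 without the F19 pair, -0.22 without the F20 pair and 0.74 without the KH_161103 pair.

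Levels of different genes were compared per kilobase of annotated exon, a measure that depends on which transcripts are made. On this scale the order of mean levels was the same in both regions: Slc1a2, Glul, Slc17a6, Slc1a3, Slc1a1, Slc17a8 and Slc17a7. Slc1a2 was at 1480 ± 49.9 normalised reads per kb in VMHpvlm and 1893 ± 162 in VMHpvll. Glul followed at 1252 ± 133 and 1330.07 ± 162, and Slc17a6 at 864 ± 25.7 and 916 ± 3.17. Slc1a3 was at 495 ± 47.3 and 516 ± 16.1, and Slc1a1 at 73.4 ± 3.05 and 79.8 ± 4.87. Within each region the libraries of neighbouring genes in this order did not overlap. By mean level per kb over all libraries, Slc1a2 ranked 81, Glul 116, Slc17a6 246, Slc1a3 537 and Slc1a1 4948 among 13973 tested genes with a length. These are high levels for 4 of the 5, and Slc1a1 lay in the middle part of the range.

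**Figure D2:**
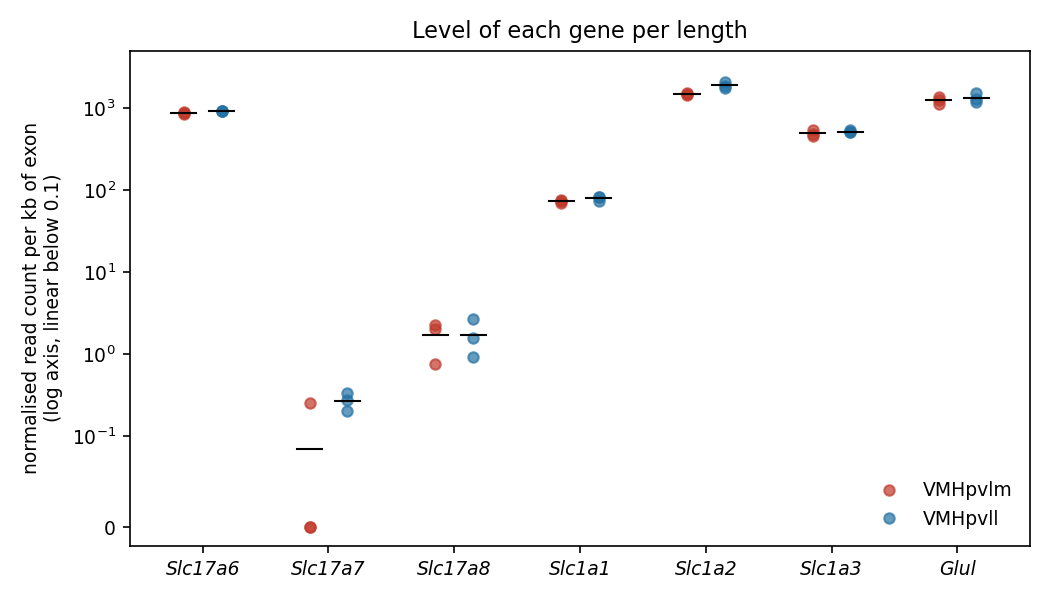
Normalised read count per kilobase of exon for each gene (log axis, linear below 0.1), with 1 point per library and a black line at the mean of 3 libraries. Slc1a2 is the highest gene in both regions, and Slc17a8 and Slc17a7 lie far below Slc17a6.

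Within the vesicular family, Slc17a6 took 99.8% ± 0.0987 of the summed level per kb in VMHpvlm and 99.8% ± 0.105 in VMHpvll (SD, n = 3), and Slc17a8 took 0.196% and 0.189%. These shares did not differ beyond the spread between libraries. Within the plasma membrane family the ranges of the shares were separate for Slc1a2 and Slc1a3 and overlapped for Slc1a1. Slc1a2 took 72.3% ± 1.13 in VMHpvlm and 76.0% ± 1.30 in VMHpvll, with ranges of 70.98% to 73.1% and 74.7% to 77.3% that did not overlap. The share of Slc1a3 was 24.1% ± 1.16 in VMHpvlm and 20.8% ± 0.913 in VMHpvll, without overlap. The shares of a family add up to the whole, so this is not a result separate from that of Slc1a2. The level of Slc1a3 itself overlapped between the regions, with means of 4229 in VMHpvlm and 4403 in VMHpvll. Slc1a1 held 3.58% and 3.23%.

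Slc1a2, the transporter that clears most synaptic glutamate in the forebrain, had the highest level of the 7 and the largest difference among the 5 tested. The F19, F20 and KH_161103 libraries held 19544, 20031 and 18735 normalised reads of it in VMHpvlm and 27152, 22936 and 24500 in VMHpvll. Every VMHpvll library lay above every VMHpvlm library, as for 13.5% of all tested genes (28.0% in either direction). The F19 pair was furthest apart and the F20 pair closest. The mean was 1.28-fold higher in VMHpvll (24862 ± 2131 against 19437 ± 655, SD, n = 3). The fitted log2 difference was -0.35 ± 0.054 SE (95% interval -0.49 to -0.22, limma Benjamini-Hochberg adjusted p = 0.00730), and it was larger in size than that of 78.8% of all tested genes. Pair by pair it was -0.47, -0.20 and -0.39. The call was lost with libraries scaled to the same upper quartile (log2 difference -0.36, limma Benjamini-Hochberg adjusted p = 0.0998) and with a variance prior without trend and robust (adjusted p = 0.130), although the difference itself hardly moved. The robust fit gave Slc1a2 only 3.39 prior degrees of freedom, against a median of 39.9. With no filter on low values the call was kept, but close to the threshold (limma Benjamini-Hochberg adjusted p = 0.0495).

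Slc1a3, the other astrocytic transporter, was at 4138, 4671 and 3879 in VMHpvlm and 4560, 4344 and 4305 in VMHpvll. The ranges overlapped, and the F20 library of VMHpvlm was the highest of all 6. The means were 4229 ± 404 and 4403 ± 137 (SD, n = 3), and the fitted log2 difference was -0.062 ± 0.041 SE (95% interval -0.14 to 0.021, limma Benjamini-Hochberg adjusted p = 0.329). The F19 and KH_161103 pairs gave -0.14 and -0.15 and the F20 pair 0.10. Without the F20 pair Slc1a3 was called toward VMHpvll (log2 difference -0.15, limma Benjamini-Hochberg adjusted p = 0.00628).

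Slc1a1, the neuronal form, was at 605, 632 and 581 in VMHpvlm and 613, 690 and 674 in VMHpvll. The lowest VMHpvll library, F19, lay within the VMHpvlm range. The means were 606 ± 25.1 and 659 ± 40.2 (SD, n = 3), a fitted log2 difference of -0.12 ± 0.067 SE (95% interval -0.25 to 0.016) that did not reach a call (limma Benjamini-Hochberg adjusted p = 0.238). Without the KH_161103 pair the difference was -0.073, without the F20 pair -0.12 and without the F19 pair -0.17, none of them called. Exons of Slc1a1 overlap those of 4430402I18Rik on the opposite strand, a gene counted at 29.5 ± 4.70 and 21.0 ± 2.41. Arl6ip5, whose product holds back Slc1a1 transport, was at 506 ± 24.8 in VMHpvlm and 450.5 ± 28.3 in VMHpvll (log2 difference 0.17, limma Benjamini-Hochberg adjusted p = 0.112).

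Glul, which amidates glutamate to glutamine in astrocytes, was at 4579, 4204 and 3699 in VMHpvlm and 5016, 4274 and 3969 in VMHpvll. Levels followed the library names, as F19 was highest and KH_161103 lowest in both regions, so the ranges overlapped widely even though VMHpvll was higher in 3 of 3 pairs. The means were 4161.0 ± 442 and 4420 ± 538 (SD, n = 3). The fitted log2 difference was -0.086 ± 0.036 SE (95% interval -0.16 to -0.012, limma Benjamini-Hochberg adjusted p = 0.0951), and without the pair block the adjusted p was 0.718. Glul was called without the F20 pair (-0.12, limma Benjamini-Hochberg adjusted p = 0.0374) and with libraries scaled to the same upper quartile (-0.097, adjusted p = 0.0481).

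Because a ratio of genes within a library does not depend on how libraries are scaled, 6 ratios were taken from the recovered reads, chosen after the values were seen. The ratio of Slc1a2 to Slc1a3 reads was 4.72, 4.29 and 4.83 in VMHpvlm and 5.95, 5.28 and 5.69 in VMHpvll. It was higher in VMHpvll in 3 of 3 pairs with no overlap, and the mean log2 difference was -0.29 ± 0.049 (SD, n = 3 pairs, exact two-sided permutation p = 0.25, the smallest that 3 pairs allow, adjusted p = 0.375 over 6 ratios). The ratio of Slc1a2 to Glul was 4.70 ± 0.402 in VMHpvlm and 5.65 ± 0.452 in VMHpvll, higher in VMHpvll in 3 of 3 pairs, with the same exact permutation p of 0.25. Slc1a3 and Glul held nearly the same ratio, 1.02 ± 0.106 and 1.00335 ± 0.0885 (exact permutation p = 1). Relative to Aqp4, the water channel of astrocyte endfeet, Slc1a2 stood at 29.6 ± 2.52 in VMHpvlm and 28.3 ± 1.96 in VMHpvll, with overlapping ranges (exact permutation p = 0.75). Aqp4 was itself lower in VMHpvlm (log2 difference -0.41), and only 3 of 24 astrocyte markers, Aqp4 among them, fell more than Slc1a2. The ratio to Aqp4 therefore does not stand for astrocyte markers in general, and ratios to the others were not taken.

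Against GABAergic transcripts, Slc17a6 stood higher in VMHpvlm. Slc17a6 reads per Gad2 read, Gad2 being a GABA-synthesising enzyme, numbered 7.07, 8.58 and 9.24 in VMHpvlm and 3.29, 3.76 and 3.84 in VMHpvll. The ranges did not overlap (exact permutation p = 0.25 over 3 pairs, adjusted p = 0.375). For Slc32a1, the vesicular GABA transporter, the ratio was 53.5 ± 10.96 and 21.0 ± 1.46. Gad2 itself was at 570 ± 84.3 and 1370 ± 122, while Slc17a6 differed 1.06-fold.

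**Figure D3:**
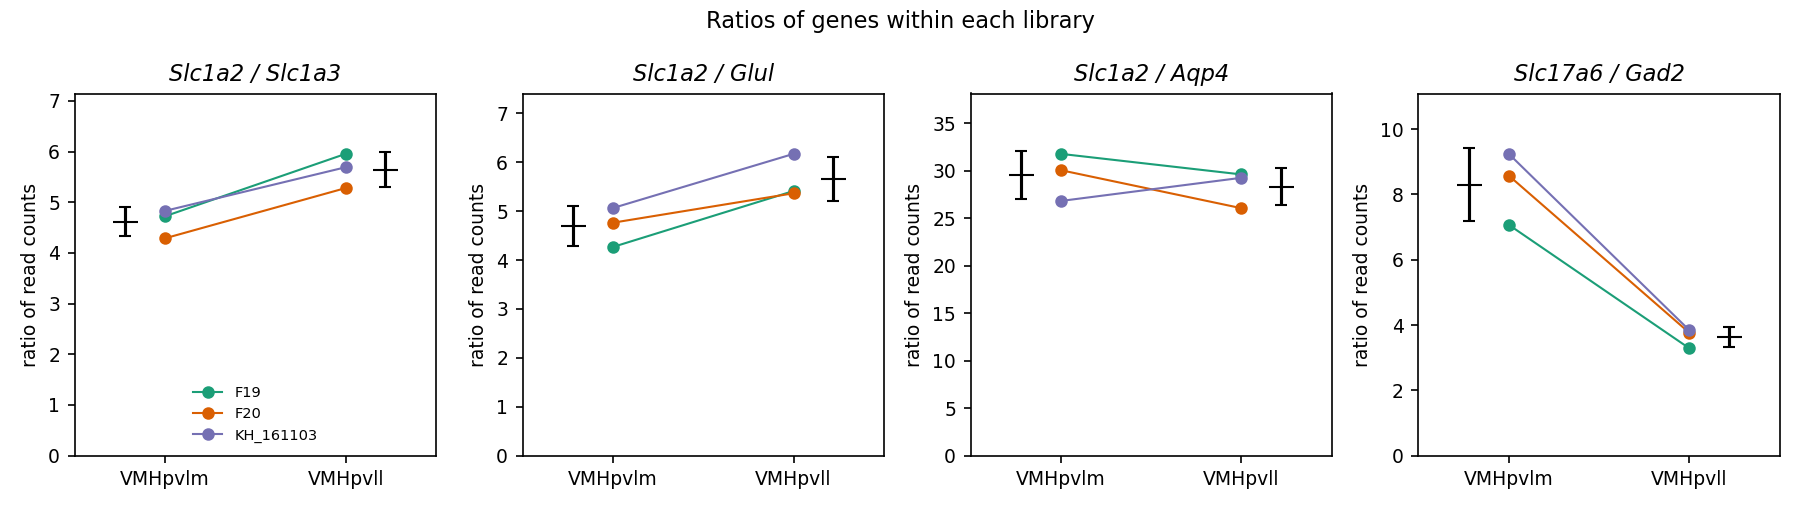
Ratio of recovered reads of 2 genes within each library (vertical axes, linear from 0), with coloured lines between libraries of the same name and black marks for the mean and SD of 3 libraries. The ratios of Slc1a2 to Slc1a3 and to Glul are higher in VMHpvll in each pair, that of Slc1a2 to Aqp4 overlaps between regions, and Slc17a6 to Gad2 is higher in VMHpvlm.

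Markers of the cell types that carry these genes also differed between the regions, and in bulk tissue fewer cells of a type and less RNA per cell cannot be told apart. Over all 14522 tested genes, the background for each marker list, 9.48% were called toward VMHpvll and 10.5% toward VMHpvlm. Without the pair block 863 and 937 of all tested genes were. Of 24 astrocyte markers, 15 were called toward VMHpvll and 1, Itih3, toward VMHpvlm (without the pair block 11 and 0). The median log2 difference of these markers was -0.21. Their summed level ran from 33496 to 35870 in VMHpvlm and from 36606 to 40068 in VMHpvll, without overlap. Among the abundant ones were Aldoc, Ndrg2 and Slc6a11 (log2 differences 0.063, -0.18 and -0.035), of which Ndrg2 was called. Slc1a2 at -0.35 lay beyond the median of this list, and 3 of the 24 markers, Gfap, Cldn10 and Aqp4, had larger differences toward VMHpvll. Slc1a3 and Glul lay nearer to 0 than the list's median. The part of astrocyte content in the Slc1a2 difference was not tested.

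Oligodendrocytes also express Glul and some Slc1a2. Of 18 markers of oligodendrocytes, 13 were called toward VMHpvll and 0 toward VMHpvlm (10 and 0 without the pair block), with a median of -0.40. Their summed level ran from 13350.4 to 15246 in VMHpvlm and from 17859 to 19267 in VMHpvll. Mbp, Mobp and Cnp, all myelin genes, had log2 differences of -0.44, -0.48 and -0.36. Of 12 microglia markers 0 were called, with summed levels of 1457 to 1544 and 1509 to 1702. Of 13 endothelial and mural markers 6 were called toward VMHpvll and 0 toward VMHpvlm (5 and 0 without the pair block). Summed levels of the latter were 1987 to 2418 and 2852 to 3475. Of 6 tested tanycyte and ependymal markers 2 were higher in VMHpvll (1 without the pair block), with sums of 305 to 432 and 549.5 to 772, and Tmem212 had 0 reads. The part of these cell types in the differences of Glul and Slc1a2 was not tested.

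Pan-neuronal markers leaned the other way. Of 18, 7 were called higher in VMHpvlm and 1, the neurofilament Nefh, in VMHpvll, beside 10.5% and 9.48% of all tested genes. Without the pair block 2 and 0 of these markers were called. Their median log2 difference was 0.075. Their summed level, 109995 to 116513 in VMHpvlm and 103368 to 112189 in VMHpvll, overlapped. The most abundant, Map2, Dnm1, Snap25 and Syt1, had log2 differences of -0.027, 0.13, 0.50 and 0.17. Slc17a6 and Slc1a1, at -0.085 and -0.12, lay below the median of these markers but within their range of -0.19 to 0.50. Of 7 tested GABAergic markers, 7 were higher in VMHpvll, with a median of -1.40 and sums of 2264 to 2466 and 3684 to 4274. Without the pair block 6 were called, and Dlx6 was not (limma Benjamini-Hochberg adjusted p = 0.0533).

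**Figure D4:**
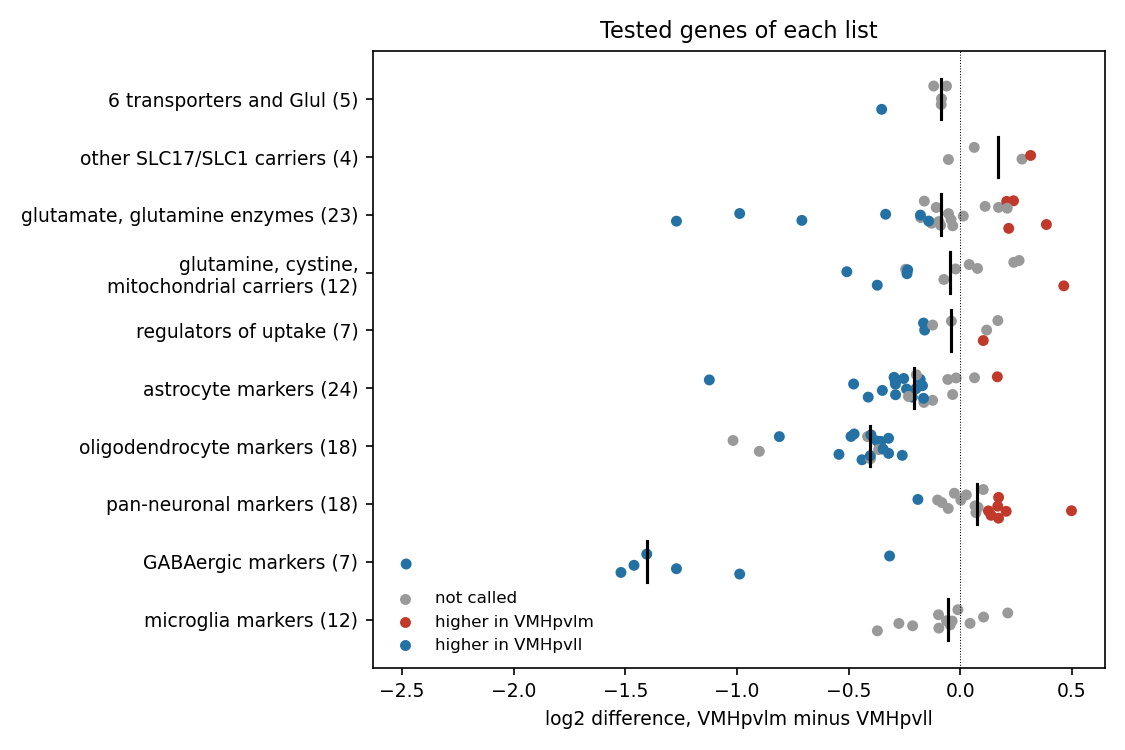
Fitted log2 difference (VMHpvlm minus VMHpvll) of the tested genes of 10 lists, with the number tested after each name and the median as a black line. Of the 5 tested transporters and Glul only Slc1a2 is coloured as called, and it lies among the called astrocyte markers. The median of all 24 tested astrocyte markers, called or not, is -0.21.

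Other genes of glutamate handling went both ways. Of 57 genes in 4 lists (other SLC17 and SLC1 carriers, enzymes of glutamate and glutamine, carriers of glutamine, cystine and mitochondrial glutamate, and regulators of uptake), 46 were tested, 7 of them called toward VMHpvlm and 12 toward VMHpvll, and the median log2 difference was -0.048. Over all 14522 tested genes, the background also for each of the 4 lists, 10.5% were called toward VMHpvlm and 9.48% toward VMHpvll. Without the pair block the counts in the 4 lists were 5 and 6, beside 937 and 863 over all tested genes. Gad1, Gad2 and Gja1 are among the genes of these lists that also belong to a marker list above.

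Among the other carriers, 4 of 10 were tested and 1 was called. Slc1a6 (EAAT4), a neuronal glutamate transporter best known from Purkinje cells, was higher in VMHpvlm, at 267 ± 22.6 against 215 ± 26.3 (log2 difference 0.31 ± 0.10 SE, limma Benjamini-Hochberg adjusted p = 0.0256). It was not called without the pair block (adjusted p = 0.0917). The neutral amino acid carrier Slc1a4 was at 544 ± 5.24 and 523 ± 60.2 and was not called. Slc1a7 and Slc17a9 stayed below the filter, and Slc17a2 and Slc17a4 had 0 reads in every library.

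Among 23 tested enzymes, 4 were called toward VMHpvlm and 6 toward VMHpvll. Gclc, which joins glutamate to cysteine in glutathione synthesis, was higher in VMHpvlm at 493 ± 23.8 against 377.5 ± 25.2 (log2 difference 0.39, limma Benjamini-Hochberg adjusted p = 0.000168), as were the asparagine synthetase Asns (0.24) and the branched-chain aminotransferase Bcat1 (0.21). Higher in VMHpvll were the GABA-synthesising enzymes Gad1 and Gad2 (-0.99 and -1.27), the GABA-degrading Abat and Aldh5a1 (-0.14 and -0.18), Gfpt1 of the hexosamine pathway (-0.33) and the alanine aminotransferase Gpt (-0.71). Without the pair block Abat, Aldh5a1 and Gpt were not called (adjusted p = 0.121, 0.130 and 0.0774). Glud1, the glutamate dehydrogenase, was at 2619 ± 46.6 and 2718 ± 65.4 and was not called.

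Among the carriers of glutamine, cystine and mitochondrial glutamate, 12 were tested, of which 1 was called toward VMHpvlm and 4 toward VMHpvll. The cystine-glutamate exchanger Slc7a11 was at 312 ± 48.3 in VMHpvlm and 442 ± 37.3 in VMHpvll (log2 difference -0.51, limma Benjamini-Hochberg adjusted p = 6.55e-06), and its partner Slc3a2 was lower in VMHpvlm too (-0.24). Slc7a5, which also pairs with Slc3a2, and the mitochondrial glutamate carrier Slc25a18 had differences of -0.37 and -0.24. The neuronal amino acid transporter Slc6a15 was higher in VMHpvlm (566 ± 32.9 against 410.2 ± 22.4, 0.46). The glutamine carriers Slc38a1, Slc38a2 and Slc38a3 were not called, with differences of -0.021, 0.040 and -0.25. Slc3a2 and Slc25a18 were not called without the pair block (adjusted p = 0.130 and 0.101).

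Of 7 tested regulators of uptake, 1 was called toward VMHpvlm and 2 toward VMHpvll, beside 10.5% and 9.48% of all tested genes. Without the pair block the counts of regulators were 0 and 1. Kcnj10, the astrocytic potassium channel Kir4.1, was higher in VMHpvll at 2507 ± 171 against 2244 ± 151 (log2 difference -0.16, limma Benjamini-Hochberg adjusted p = 0.0147). VMHpvll was higher in 2 of 3 pairs, and Kcnj10 was not called without the pair block (limma adjusted p = 0.121). With libraries scaled to the same total, 1 regulator was called in each direction.

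For each of the 5 whose mean reached 100, the genes with the most similar profile were sought among 9237 genes of that level or more, by the root-mean-square difference of centred log2 values over the 6 libraries. Nearest to Slc1a2 were Clic4, an intracellular chloride channel protein (0.018), Itgav, an integrin subunit (0.032), and Slc39a12, a zinc transporter (0.040). No other of the 5 came close to it, as Slc17a6 was its nearest at 0.15 and rank 1166. Nearest to Slc17a6 were Snrpf, Tex2 and Atp6v0a2, at 0.011, 0.012 and 0.015. For Slc1a3 they were Rps3, Dstn and Bcap31 (0.024, 0.025 and 0.027), for Glul Rapgef3, Ranbp6 and Rpl9 (0.029, 0.030 and 0.034), and for Slc1a1 Hs6st2, Sf3a3 and Gatsl2 (0.024, 0.024 and 0.029).

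On GRCm38 (mm10), by GENCODE M21, Slc17a6 lies on chromosome 7 from 51622006 to 51671119 and Slc17a7 on chromosome 7 from 45163949 to 45176142. Slc17a8 lies on chromosome 10 from 89574020 to 89621253, Slc1a1 on chromosome 19 from 28835049 to 28913960 and Slc1a2 on chromosome 2 from 102658659 to 102790784. Slc1a3 lies on chromosome 15 from 8634124 to 8710764 and Glul on chromosome 1 from 153899944 to 153909723. All 7 are protein-coding. Exons of Slc1a2 overlap Gm13872 on the opposite strand (45 reads over the 6 libraries, beside 116426 of Slc1a2), and those of Glul overlap Mir8114 and Teddm2 (1 and 65 reads). The strand setting of the counting is not stated in the labels, and reads shared by overlapping genes cannot be told apart.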

How the data were processed

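RNA of 6 laser-captured samples, 3 per region, was sequenced from stranded total RNA libraries, per the labels' protocols. Per the submitters' processing notes, HISAT2, featureCounts and the build mm10 were used (no versions are listed). The annotation and the scaling tool: not given in the sources used here. The deposited values are a normalised signal, gene counts divided by 1 factor per library: in each library 100% of non-zero values were whole multiples of 1 read within 0.05 reads, so whole reads were recovered. Values were tested as log2(value + 1), which understates changes of low genes, by limma 3.58.1 in R 4.3.3 (eBayes, trend and robust both on) in 14522 genes whose mean was 10 or more. The model held region and pair name, leaving 2 residual degrees of freedom. Tests were two-sided, with Benjamini-Hochberg adjustment over all tested genes and calls below 0.05. Folds are ratios of region means. Deviations from region means correlated at 0.26, 0.24 and 0.36 within pair names and between -0.25 and 0.0067 across them, so the names were taken to pair the libraries. Libraries of a region differed by more than sampling noise (chi-square per degree of freedom 5.69 to 10.1). Exon lengths came from GENCODE M21 and matched 96.2% of tested genes. The fitting step was tested on simulated data with the same dispersion in every gene and no pair effect. That test therefore does not cover pair effects or genes of unusual variance. Alternatives were edgeR 4.0.16 and DESeq2 1.42.0 on recovered reads, other scalings, filters and pseudocounts, and leaving out pairs or libraries. The genes and lists were chosen with earlier results of these data known. By rule, the text names all 7 genes, the called genes of the 4 glutamate lists, abundant markers and the 3 nearest profiles. Other genes were named after their values were seen. A few list genes enter the counts and are not reported by name here.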

Additional observations from a re-analysis of the deposited data

How the results depend on the processing

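Over all tested genes, 2905 were called, against 1800 without the replicate block, 422 with a variance prior without trend and robust, 1230 by DESeq2 and between 1760 and 2892 with 1 pair or library left out. For the 5 tested genes, 46 of 50 fits with all libraries and 12 of 15 with a pair left out stayed on the same side of the threshold, and 0 reversed direction. Leaving out 1 library gave the same differences as leaving out its pair, since with the block its partner carries no information on the regions. The exceptions with all libraries came from upper-quartile scaling (Slc17a6 gained a call at -0.0961, Glul gained one at -0.0970 and Slc1a2 lost its call at -0.364) and from the variance prior without trend and robust (Slc1a2 lost its call at -0.352). The cause was not tested. With pairs left out, the log2 difference of Slc17a6 ran from -0.109 to -0.0638, of Slc1a1 from -0.170 to -0.0727, of Slc1a3 from -0.145 to -0.0178 and of Glul from -0.117 to -0.0627, and Slc17a6, Slc1a3 and Glul were called only without F20. Slc1a2 kept its call in each of those fits, from -0.431 to -0.291, with limma adjusted p-values of 1.17e-35 to 7.26e-05, lower than with all libraries. With a pair left out, the variance in the fit comes mostly from other genes. Adjusted p-values of such fits, also those given above without the F20 pair, therefore do not measure a gene's own spread between libraries. The lower values are no added evidence for Slc1a2. Without the replicate block Slc1a2 was still called (adjusted p = 0.000121 by limma), and no other of the 5 gained a call. Slc17a7 and Slc17a8 were too low for a test with the filter on low values. With no filter their adjusted p-values were 0.570 and 0.983 by limma, and that of Slc1a2 was 0.0495, just under the threshold.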
